A study of Drosophila melanogaster with 6 samples.

Results

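A list of 8 genes of lipid, sterol and nutrient metabolism (Npc2a, Lip4, Cerk, Acox3, Gs1, mnd, ImpL2 and tobi) was followed on 2-colour spotted cDNA arrays of Drosophila melanogaster material treated with methotrexate. These 8 genes are a named list drawn from the 6795 genes on the S3 array design and the 2377 genes on the ovary design. All 8 were on the S3 design and 2 of them, Cerk and ImpL2, on the ovary design, each as 1 pair of neighbouring spots with a value on every array. The genes were selected on their measured log ratios on these arrays: the S3 ratios for Npc2a, Lip4, Gs1, mnd, ImpL2 and tobi, and the ovary ratios for Cerk. Those ratios are therefore given as a description with no test. Why Acox3 was listed is not recorded, and its values are treated in the same way.

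The study used S3 cells, a single Drosophila line cultured from embryos, exposed to 0 or 5.2e-08 M methotrexate for 4 days (4 arrays), and ovaries dissected from flies exposed to 0 or 5 ppm for 5 days (2 arrays). Methotrexate is an antifolate that inhibits dihydrofolate reductase. On every array the 2 channels held RNA from treated and from untreated material of 1 kind. Strain, fly age and the number of flies or cultures are not given in the sources used here, so p-values cover the variation from array to array and nothing beyond it, and this may be technical. Ratios hold no expression levels, so neither material could be checked against its defining markers.

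Insects cannot make sterols and take them from food. Npc2a encodes a protein that binds sterols in the lysosome and helps to release them into the cell. Lipases such as Lip4 free fatty acids from stored or engulfed lipids, acyl-CoA oxidases such as Acox3 start their breakdown in peroxisomes, and Cerk phosphorylates ceramide, a membrane sphingolipid and signalling lipid. Gs1, mnd, ImpL2 and tobi link nutrients to growth through glutamine synthesis, amino acid uptake, insulin-like peptides and dietary sugar.

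The sign of a ratio has no settled direction relative to methotrexate, because the sources used here do not give the numerator, and the base of the logarithm was taken as 2. Per the labels, the treated RNA was in channel 2 of every S3 array, labelled with Cy5 on array 2 and with Cy3 on the remaining arrays 1, 3 and 4. Arrays 1, 3 and 4 thus run the same way whatever the numerator, and S3 means below are over these 3 arrays. The treated RNA carried Cy3 on all 3. In these means and their tests a dye effect of a gene and a treatment effect therefore cannot be told apart. If the numerator was a channel, S3 array 2 runs the same way as the others. If it was a dye, S3 array 2 runs the opposite way. On the ovary arrays the treated RNA carried Cy5 in channel 1 of array 1 and in channel 2 of array 2, although the series text speaks of swapped dyes. Those arrays run the same way if the numerator was a dye and opposite ways if it was a channel. Their genes correlated at r = 0.814 as deposited, and they are used as deposited. With a dye as numerator, a positive ratio on S3 arrays 1, 3 and 4 would be the opposite of a positive ratio on the ovary arrays. Signs that match or differ between the designs are therefore only described, and no conclusion is drawn from them.

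Print position moved with the S3 ratios. Print blocks are the sub-grids in which spots were laid down, and their medians explained 15.5% and 19.0% of the variance between spots on S3 arrays 1 and 2, against 4.27% and 3.70% on arrays 3 and 4. Over the 48 blocks, block medians correlated positively between arrays 1 and 3 (r = 0.787) and arrays 2 and 4 (r = 0.654) and negatively in the other pairs, from r = -0.511 for arrays 3 and 4 to r = -0.915 for arrays 1 and 2. Values are given with each print block centred on its own median and, beside them, with the whole array centred on its median. With blocks centred the genes of S3 arrays correlated at only r = 0.0616 to 0.179 between arrays, and neighbouring duplicate spots at r = 0.143 to 0.436 within arrays. On the ovary arrays duplicates correlated at r = 0.902 and 0.822.

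In S3 cells 5 of the 8 genes had negative ratios on arrays 1, 3 and 4 under both centrings: Npc2a, Lip4, Gs1, Acox3 and Cerk. mnd and tobi were positive on these 3 arrays under both centrings, and ImpL2 was positive on all 3 with blocks centred but not with array medians. As background, limma called 1 of the 6772 genes on these 3 arrays (0.0148%) at an adjusted p under 0.05. That gene, CG15347, is named because it was the single call and is not among the 8.

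**Figure D1:**
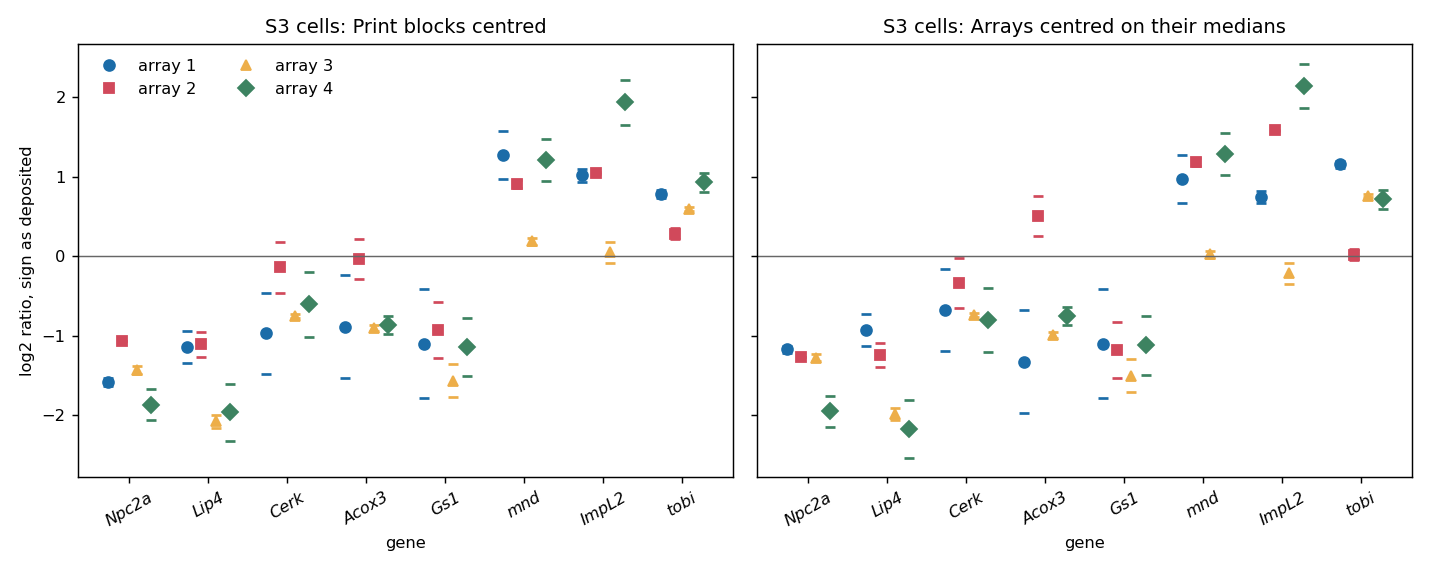
Log2 ratios of the 8 genes on S3 arrays 1 to 4, with signs as deposited. Large markers are the mean of the pair of spots and dashes the single spots, with print blocks centred on the left and arrays centred on their medians on the right. Npc2a, Lip4 and Gs1 lie below 0 on all 4 arrays in both panels, and array 2 stands apart from the others for Acox3.

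The sterol gene Npc2a had block-centred log2 ratios of -1.58, -1.07, -1.43 and -1.87 on S3 arrays 1 to 4. All 4 arrays were negative as deposited and array 2 was the nearest to 0. On arrays 1, 3 and 4 the mean was -1.63 ± 0.22 (SD, n = 3), a 3.09-fold difference between the channels. Centred on array medians it was at -1.17, -1.26, -1.28 and -1.95, so that arrays 1 to 3 lay close together and array 4 lower. Its spots gave nearly the same value on arrays 1 to 3, at most 0.093 apart, and were 0.39 apart on array 4. The median distance between duplicates was 0.338 to 0.403 on these arrays, with 0.403 on array 4. Ranked among all genes of an array, Npc2a had 34 of 6787 genes below it on array 1, 108 of 6787 on array 2, 74 of 6790 on array 3 and 19 of 6785 on array 4 with blocks centred. On array medians these counts were 188, 64, 124 and 13.

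The other family members of Npc2a on the S3 design, named after their values were seen, were less even. Npc2b had ratios of -1.02, -0.76, -1.90 and -0.20, negative on all 4 arrays with an average of -1.04 ± 0.85 (SD, n = 3) and an adjusted p of 0.586 by limma. Npc2f was near 0 on arrays 1 and 3 (0.027 and 0.019) and negative only on array 4 (-1.20), and was at 0.26 on array 2. Npc1a, the membrane partner that takes sterol from Npc2 proteins in the lysosome, was at 0.46, -0.53, -0.30 and 0.13 and showed no common sign. Neither Npc2f nor Npc1a passed (limma adjusted p of 0.706 and 0.916).

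Lip4 belongs to the acid lipases and in flies is transcribed under the starvation factor foxo. Its block-centred log2 ratios in S3 cells were -1.14, -1.11, -2.08 and -1.97. Arrays 3 and 4 lay almost 1 unit below arrays 1 and 2. The mean of arrays 1, 3 and 4 was -1.73 ± 0.51 (SD, n = 3), a 3.31-fold difference between the channels and the widest of the 8 genes in S3 cells. Array-median values were -0.92, -1.24, -1.98 and -2.17, which leaves the same pair of arrays lowest. With blocks centred 121, 93, 16 and 8 genes lay below Lip4 on arrays 1 to 4, and on array medians 416, 70, 25 and 8. With rows centred as well there were 87, 73, 10 and 44.

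The related lipase genes on the S3 design, named after their values were seen, did not share this pattern. Lip1 was at -0.20, 0.20, 0.13 and 0.18, Lip3 at 0.63, -0.39, -1.20 and 0.74 and Lip2 at -1.81, 0.90, -0.00046 and -0.36. Lip2 was low on array 1 alone, and none of the 3 passed (limma adjusted p of 0.964, 0.969 and 0.598). The differences between Lip4 and these genes were not tested.

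Acox3, an acyl-CoA oxidase gene, had block-centred log2 ratios of -0.89, -0.035, -0.91 and -0.87. Arrays 1, 3 and 4 nearly coincided and array 2 was near 0. Arrays 1, 3 and 4 averaged -0.89 ± 0.020 (SD, n = 3). This narrow spread did not extend to the single spots, which on array 1 lay 1.30 apart at -0.23 and -1.54. Centring on array medians gave -1.33, 0.51, -0.99 and -0.75, so that array 2 was on the other side of 0. The print block that holds Acox3 lay 0.54 above the median of array 2 and 0.44 below that of array 1. The part of print position in the Acox3 values was not tested.

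Gs1 encodes the mitochondrial form of glutamine synthetase, which makes glutamine from glutamate and ammonia. Its block-centred log2 ratios were -1.10, -0.92, -1.57 and -1.14, all negative, with array 3 the lowest. Over arrays 1, 3 and 4 the mean was -1.27 ± 0.26 (SD, n = 3). Array medians hardly moved the values of arrays 1, 3 and 4 (-1.10, -1.501 and -1.12) and brought array 2 to -1.18. Centring rows as well as blocks moved them more, to -0.73, -0.86, -1.15 and -1.05 on arrays 1 to 4. The mean of arrays 1, 3 and 4 was then -0.98 ± 0.22 (SD, n = 3). Its duplicates were less alike than its array means: on array 1 the spots stood at -0.42 and -1.78, and on the other arrays they were 0.42 to 0.74 apart. Gs2, which encodes the cytosolic form and is named after its values were seen, was at 0.26, 0.33, -1.15 and -0.27 and was low on array 3 only (limma adjusted p = 0.703).

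The amino acid transporter gene mnd encodes a light chain of the Slc7 family that brings leucine and related amino acids into cells. Its block-centred log2 ratios were 1.28, 0.91, 0.19 and 1.21. Arrays 1, 2 and 4 were high and array 3 was near 0. Arrays 1, 3 and 4 gave a mean of 0.89 ± 0.61 (SD, n = 3), and without array 3 it was 1.24. On array medians mnd was at 0.97, 1.19, 0.026 and 1.29, with the same array lowest. With blocks centred mnd ranked above 98.9%, 98.4%, 70.0% and 97.7% of genes on arrays 1 to 4, and on array medians above 96.4%, 98.6%, 52.2% and 98.6%.

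ImpL2 encodes a secreted protein that binds insulin-like peptides and restrains insulin signalling. In S3 cells its block-centred log2 ratios were 1.02, 1.05, 0.049 and 1.94. As with mnd, array 3 was the lowest and lay near 0, while array 4 was the highest, with 6 of 6785 genes above ImpL2 (4 on array medians). Over arrays 1, 3 and 4 the mean was 1.002 ± 0.94 (SD, n = 3) and moved with arrays 3 and 4: it was 1.48 without array 3 and 0.53 without array 4. Array medians gave 0.75, 1.58, -0.21 and 2.14, so that array 3 was then negative. Spots of a pair were at most 0.56 apart, less than the distance between arrays 3 and 4.

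tobi encodes an alpha-glucosidase known in flies as a target of insulin and of the hormone that mobilises sugar. Its block-centred log2 ratios were 0.78, 0.29, 0.60 and 0.93, all positive with array 2 the lowest. The mean of arrays 1, 3 and 4 was 0.77 ± 0.17 (SD, n = 3), and the spots of a pair were at most 0.24 apart. Centred on array medians, tobi was at 1.16, 0.018, 0.76 and 0.72, so array 2 then lay at 0. With blocks and rows centred tobi was at 0.77, 0.38, 0.28 and 1.13, with array 3 the lowest. The block of tobi lay 0.38 above the median of array 1 and 0.27 below that of array 2.

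Cerk, listed for its ovary ratios, could be tested in S3 cells and did not pass. Its block-centred log2 ratios were -0.97, -0.14, -0.75 and -0.61. All 4 were negative, with array 2 nearest to 0. Arrays 1, 3 and 4 averaged -0.78 ± 0.18 (SD, n = 3), and all 3 were negative. By limma the adjusted p was 0.524 over 6772 genes and the unadjusted p 0.00621. Array-median values were -0.68, -0.34, -0.74 and -0.80 and the adjusted p was 0.531. Over all alternatives the limma adjusted p ran from 0.458 to 0.864. The spots of Cerk differed by 0.046 on array 3 but by 0.64 to 1.02 on the other arrays, and on array 2 they stood on either side of 0 (-0.46 and 0.18).

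The sign of array 2 moved most the means of the genes whose ratios on that array were far from 0. With array 2 added as deposited, block-centred means over 4 arrays were -1.49 ± 0.33 for Npc2a, -1.57 ± 0.52 for Lip4 and -1.18 ± 0.27 for Gs1 (SD, n = 4 each). With array 2 turned they were -0.95 ± 1.36, -1.02 ± 1.48 and -0.72 ± 1.12, and the spread exceeded the mean. For mnd the mean went from 0.90 ± 0.50 to 0.44 ± 1.03 and for ImpL2 from 1.01 ± 0.77 to 0.49 ± 1.28. For Cerk (-0.62 and -0.55), Acox3 (-0.67 and -0.66) and tobi (0.65 and 0.51) the sign of array 2 moved the mean little. Because the list was drawn with array 2 in view, neither pattern bears on which sign is right. Over all S3 genes limma called 0 with array 2 added as deposited or turned with blocks centred (644 and 331 at an unadjusted p under 0.05), and 3 (0.0444%), all negative, with array medians and array 2 as deposited. Without array 1 it called 28 (0.413%), of which 27 were negative (0.399%).

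**Figure D2:**
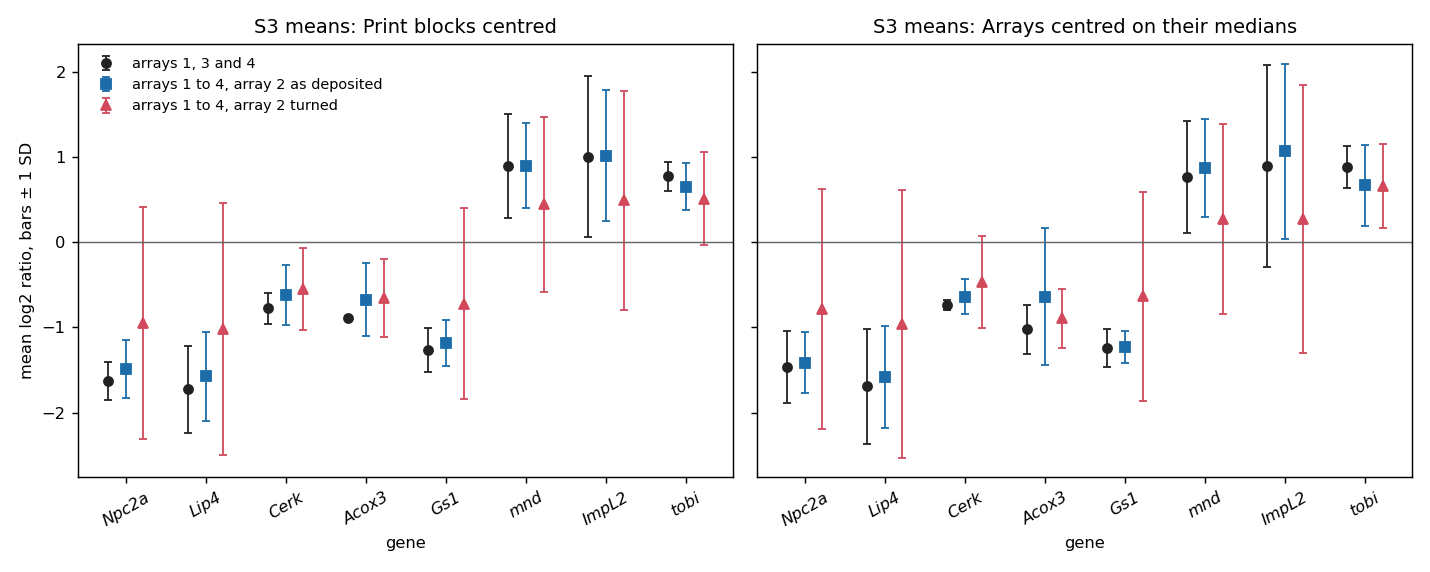
Mean log2 ratio of the 8 genes in S3 cells, with bars of 1 SD, over arrays 1, 3 and 4 (n = 3) and over arrays 1 to 4 with array 2 as deposited or turned (n = 4). Print blocks are centred on the left and arrays on their medians on the right. With array 2 turned, the bars of Npc2a, Lip4, Gs1, mnd, ImpL2 and tobi reach across 0 with blocks centred, and that of Cerk (-0.47 ± 0.54) does so with array medians.

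The genes whose S3 pattern lay closest to each of the 8 were found by Euclidean distance over the block-centred ratios of arrays 1 to 4, a measure that does not depend on the sign of array 2. CG16959 was the nearest to Npc2a among 6764 genes (distance 0.34, where the median gene was at 3.09) and also to Lip4 (0.52, median 3.34). Its ratios were -1.34, -1.20, -1.63 and -1.84. The second nearest were CG16743 for Npc2a (0.64) and cer, a gene for an inhibitor of cathepsin proteases, for Lip4 (0.71).

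Fife, a gene known from synaptic release sites, was the nearest to both ImpL2 (0.45, median 2.59) and mnd (0.64, median 2.15), with ratios of 0.93, 1.19, 0.35 and 1.64. They were followed by the growth factor gene Pvf2 (0.61) and by Cyp313a3 (0.65). Gs1 was closest to CG8066 (0.41) and CG15043 (0.42), Acox3 to CG32983 (0.24) and CG14820 (0.30), and tobi to Nacalpha (0.25) and CG6443 (0.30). Cerk was closest to CG5758 and to CtsB, a cathepsin gene (0.19 each). Distances over 4 arrays describe these arrays only.

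On the ovary arrays Cerk and ImpL2 stood on opposite sides of 0. In whole ovaries, a changed share of cells and a changed amount of RNA per cell cannot be told apart. The background is wide here: at the same threshold limma called 1166 of 2377 ovary genes (49.1%), of which 584 were positive (24.6%) and 582 negative (24.5%). Without any centring the calls were 559 positive and 284 negative. The treated RNA carried Cy5 on both arrays, so that a dye effect of a gene and a treatment effect cannot be told apart.

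Cerk had block-centred log2 ratios of 2.21 and 2.08 on ovary arrays 1 and 2, a mean of 2.15 ± 0.094 (SD, n = 2) and a 4.43-fold difference between the channels. With blocks centred 7 and 1 of 2377 genes lay above it on arrays 1 and 2, with array medians 6 and 8, and with blocks and rows centred 82 and 34. Its spots were 0.16 apart on array 1 and 0.21 apart on array 2. On array medians Cerk was at 2.18 and 1.79.

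ImpL2, listed for its S3 ratios, could be tested on the ovary arrays. Its block-centred log2 ratios were -1.04 and -0.65, with spots 0.19 and 0.34 apart. The mean was -0.85 ± 0.28 (SD, n = 2), negative on 2 of 2 arrays, with an adjusted p of 0.00343 by limma over 2377 genes, where the median of all ovary genes was -0.16. Centred on array medians ImpL2 was at -1.20 and -0.88 (mean -1.04, limma adjusted p = 0.00141), where 39% of all ovary genes passed.

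Within print blocks the ovary ratios varied by row, and ImpL2 lay in the lowest row. The medians of the 22 rows ran from -0.72 to 1.05 on array 1 and from -0.44 to 0.62 on array 2, and correlated at r = 0.924 between the arrays. The row of ImpL2 was the one at -0.72 and -0.44, and within its own block that row was at -0.58 and -0.54, which is what row centring removed. A row within a block held only 24 spots, with the pair of the gene itself among them. The parts of print position and of true ratios in such a row median were not tested. With blocks and rows centred ImpL2 was at -0.46 and -0.11, a mean of -0.28 ± 0.25 (SD, n = 2), and did not pass (limma adjusted p = 0.341). The row of Cerk had medians of 0.55 and 0.39 over all blocks and of 0.80 and 0.84 within its own block, and with rows centred Cerk was at 1.41 and 1.24, a mean of 1.33 ± 0.12 (SD, n = 2). Row centring moved the median of all ovary genes to -0.01, and limma then called 615 genes (25.9%). When S3 and ovary arrays were fitted jointly, ImpL2 did not pass either (limma adjusted p = 0.0989), where 435 of the 1816 genes on both designs passed (24%). That fit takes 1 spread per gene from the S3 and ovary arrays together. With ovary array 2 turned ImpL2 had a mean of -0.20 (limma adjusted p = 0.9999). There 0 of 2377 genes passed and 0 had an unadjusted p under 0.05, so that setting cannot tell ImpL2 from any other gene.

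**Figure D3:**
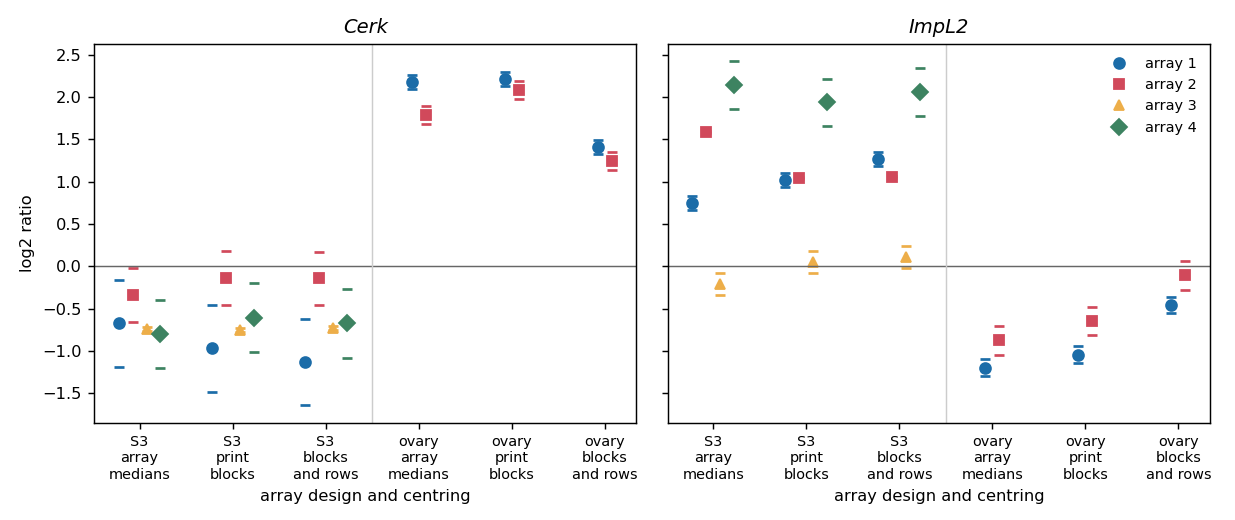
Log2 ratios of Cerk (left) and ImpL2 (right) on S3 and ovary arrays with arrays centred on their medians, print blocks centred, or print blocks and rows centred. Large markers are means of the pair of spots on an array and dashes the single spots. Centring rows as well as blocks brings the ovary values of ImpL2 from -1.04 and -0.65 to -0.46 and -0.11. It brings those of Cerk from 2.21 and 2.08 to 1.41 and 1.24.

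The wider pathways of the 8 genes were read from 8 lists written with earlier results of these data known. Without the 8 genes themselves, 207 of the 343 genes in these lists were tested on the S3 arrays and 72 on the ovary arrays. On the S3 arrays limma called 0 of the 207, with 20 at an unadjusted p under 0.05, where 8.4% of all genes were under it. Their median ratio was -0.03 beside -0.01 for all genes.

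**Figure D4:**
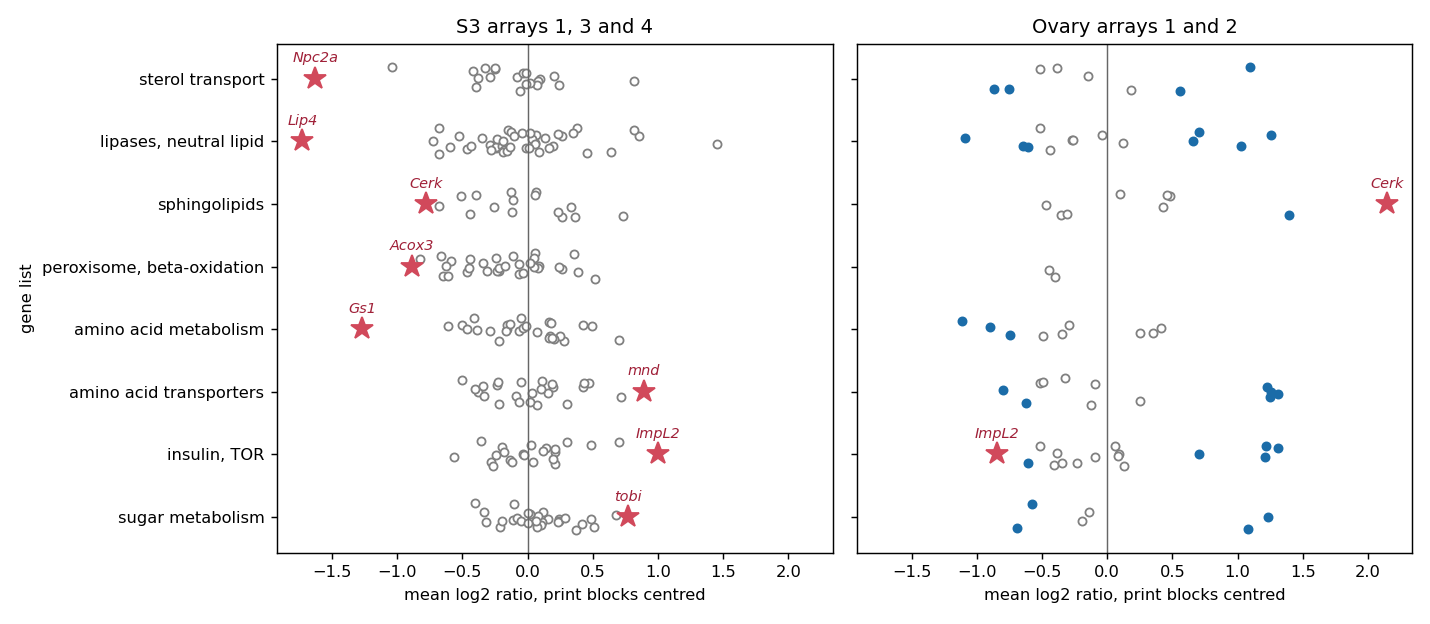
Mean log2 ratio, print blocks centred, of each gene in the 8 pathway lists on S3 arrays 1, 3 and 4 (left) and ovary arrays 1 and 2 (right). Filled circles passed limma at an adjusted p under 0.05, open circles did not, and stars are the 8 listed genes. No circle is filled in the S3 panel.

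Over all S3 genes 51.7% were negative, which is the background for the sign counts of each list below. Among S3 sterol genes 13 of 20 were negative (65%, median -0.05). After Npc2b the smallest p belonged to Fpps, which makes farnesyl diphosphate, at -0.41 ± 0.24 and to Apoltp, a lipid transfer particle gene, at -0.39 ± 0.45 (SD, n = 3 each). Apoltp was at 0.12 on array 1 and negative on arrays 3 and 4. Lipase and neutral lipid genes were negative for 24 of 43 (median -0.11). They were led by the predicted lipase gene CG5966 at -0.68 ± 0.19 and the ceramidase gene bwa at -0.68 ± 0.57, with CG6296, another predicted lipase gene, at 0.86 ± 0.95 (SD, n = 3 each).

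Sphingolipid genes were split, with 8 of 15 negative (median -0.11). Besides bwa, Acer was at 0.73 ± 0.72 and SMSr, which makes ceramide phosphoethanolamine, at -0.51 ± 0.27 (SD, n = 3 each). Acer stood in this list by its name, although in the fly it is a relative of angiotensin-converting enzyme. Peroxisome and beta-oxidation genes were negative for 20 of 31 (64.5%, against 51.7% of all genes), at a median of -0.18. Among these were whd, the carnitine palmitoyltransferase of mitochondria, at -0.83 ± 0.66, the thiolase gene yip2 at -0.65 ± 0.30 and CG9547 at -0.67 ± 0.39 (SD, n = 3 each). whd was at -1.51, -0.20 and -0.77 on arrays 1, 3 and 4 and at 0.39 on array 2, while yip2 was negative on all 4 arrays.

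Amino acid metabolism had 15 of 27 genes on the negative side (median -0.04). The proline synthesis gene P5cr-2 was at -0.61 ± 0.29, GstZ2, of tyrosine breakdown, at 0.70 ± 0.60 and the glutamate decarboxylase gene Gad1 at 0.49 ± 0.32 (SD, n = 3 each). Of the amino acid transporters 13 of 24 were positive (median 0.03). JhI-21, a light chain of the same family as mnd, was at 0.51, 0.69, 0.21 and 1.43 on S3 arrays 1 to 4, lowest on array 3 as mnd was, with an average of 0.71 ± 0.63 (SD, n = 3) and an adjusted p of 0.586 by limma. CG13248 was at -0.51 ± 0.43 and path, a lysosomal amino acid transporter gene, at 0.47 ± 0.52 (SD, n = 3 each).

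Insulin and TOR genes were evenly split, 11 of 22 on each side (median -0.0031). The adipokinetic hormone receptor gene AkhR was at 0.70 ± 0.68, Ilp2 at -0.56 ± 0.47 and the kinase gene S6k at 0.49 ± 0.26 (SD, n = 3 each). Sugar genes were positive for 19 of 28 (median 0.08), and 32.1% were negative against 51.7% of all genes. These signs depended on array 2. With it added as deposited 19 were positive and 9 negative (median 0.16), and with it turned 12 were positive and 16 negative (median -0.02). The maltase gene Mal-A3 was at 0.68 ± 0.48 and the glycolytic genes Pglym78 at 0.51 ± 0.28 and Ald1 at 0.49 ± 0.29 (SD, n = 3 each). Every gene named in these S3 lists had a limma adjusted p of 0.586 or more.

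On the ovary arrays 30 of the 72 pathway genes passed (41.7%), 17 positive and 13 negative, beside 49.1% of all genes. A share below the background is no result about the pathways. The counts per list below stand beside the same background (24.6% of all genes positive, 24.5% negative). They rest on few genes and are no result about the lists. With rows centred 21 passed, 7 positive and 14 negative (29.2%, beside 25.9% of all genes).

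In the ovary 4 of 8 sterol genes passed, 2 on each side. The lipophorin receptor genes, through which oocytes and fat body take up lipid, stood apart: LpR1 was at 1.39 and 0.79, positive on both arrays, and LpR2 at -1.06 and -0.68, negative on both (limma adjusted p of 3.15e-04 and 0.00273). Both also passed with rows centred, at 0.77 and -0.80 (limma adjusted p of 0.0183 and 0.0092), as did Start1, a cholesterol transfer gene, at -0.75 ± 0.49 (SD, n = 2) and at -0.97 with rows centred.

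Of 13 ovary lipase and neutral lipid genes 4 passed on the positive and 3 on the negative side. The acyltransferase gene Agpat1 was at 1.32 and 1.19, mdy, which makes triglyceride, at 1.25 and 0.80, and the phosphatidate phosphatase gene Lpin at -1.20 and -0.98. None of these 3 passed with rows centred (0.21, 0.06 and -0.56, limma adjusted p of 0.488, 0.864 and 0.0528).

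Of 8 sphingolipid genes other than Cerk 1 passed on the ovary arrays. It was the sphingosine kinase gene Sk2, at 1.19 and 1.59 (limma adjusted p = 1.43e-05), and with rows centred it did not pass (0.47, 0.135). The glucosylceramide synthase gene GlcT (0.49 ± 0.020) and the sphingosine phosphate lyase gene Sply (-0.47 ± 0.28; SD, n = 2 each) did not pass with blocks centred and passed with rows centred, at 1.11 and -1.18 (limma adjusted p of 0.00202 and 0.00181). GlcT also passed with array medians (0.66, limma adjusted p = 0.0436). Both peroxisome and lipid activation genes on this design, Pex16 (-0.45) and Acsl (-0.40), did not pass with blocks centred and passed with rows centred, at -0.80 and -1.29 (limma adjusted p of 0.0143 and 0.00103).

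In the ovary 3 of 9 amino acid metabolism genes passed, all on the negative side: BckdhA, of branched-chain breakdown, at -1.66 and -0.57, GstZ2 at -0.94 and -0.87 and P5cr at -0.71 and -0.77. BckdhA alone of these also passed with rows centred (-0.79, limma adjusted p = 0.0132). Of 12 transporters 4 passed on the positive and 2 on the negative side. They included bdg at 1.67 and 0.94, JhI-21 at 1.30 and 1.20 and CG7255 at 1.57 and 0.94, which with rows centred were at 0.62, 0.55 and 0.48 and did not pass (limma adjusted p of 0.0517, 0.0571 and 0.098).

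Of 15 ovary insulin and TOR genes other than ImpL2, 4 passed on the positive and 1 on the negative side. The leucine sensor gene Sesn was at 1.71 and 0.92, and Nprl2 and Nprl3, which encode subunits of a complex that restrains TOR when amino acids are scarce, were at 1.48 and 0.96 and at 1.43 and 0.999. All 3 were positive on both arrays (limma adjusted p of 4.31e-05, 8.28e-05 and 8.41e-05), and Sesn alone passed with rows centred (0.88, limma adjusted p = 0.00629), where Nprl2 was at 0.32 and Nprl3 at 0.21.

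Of 6 sugar genes 2 passed on each side. The glucosidase II gene GCS2alpha (1.22 and 1.24) and the trehalase gene Treh (1.20 and 0.96) also passed with rows centred (limma adjusted p of 0.00156 and 0.00291). CG9485, a glycogen debranching gene, was at -0.70 and -0.68 and did not (limma adjusted p = 0.595).

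Genes that mark other cells of a fly were read beside these results. On the ovary arrays 3 of 7 muscle genes passed on the negative side, beside 24.5% of all ovary genes. They were Tm2 at -0.77 ± 0.15, TpnC73F at -0.75 ± 0.031 and TpnC41C at -0.64 ± 0.49 (SD, n = 2 each), the last with a limma adjusted p of 0.0232. With rows centred none of these 3 passed (limma adjusted p of 0.395, 0.961 and 0.928), while 1 other muscle gene passed on each side. Over all ovary genes 14.7% then passed on the positive and 11.1% on the negative side. Neither fat body gene on that design passed (Fbp2 at -0.35 and apolpp at -0.15), nor did either midgut gene (mag at -0.52 and LManII at -0.16). On the S3 arrays limma called 0 of 10 fat body, 18 midgut and 10 muscle genes, at medians of -0.08, 0.07 and -0.20, with 1, 0 and 0 at an unadjusted p under 0.05. The part of other cells in the ovary values of Cerk and ImpL2 was not tested.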

How the data were processed

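The deposited values are a log ratio of the 2 channels of each array, taken as log2; what the authors did to make these log2 ratios (background correction, normalisation, numerator, base) is not stated by the labels or file headers. Before any centring, S3 arrays 1 to 4 had medians of 0.08, -0.02, 0.06 and 0.18 and ovary arrays 1 and 2 of 0.11 and 0.06. Their scale and direction remain unknown, and they are centred close to 0. The values carry no signal over background, and the number of arrays limits the precision.

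Spots were named through the platform annotation, and older symbols were replaced through their Entrez number by those of Release 6: of the S3 spots, 15116 had 1 gene, 102 several and 12430 none, and on the ovary design 5666, 152 and 11078. Only spots with 1 gene were named, and 6692 of 6795 S3 genes and all 2377 ovary genes had a current symbol. The layout of print blocks (48 on the S3 design, 32 on the ovary design) is not stated. It was taken from earlier results of these data, and shifted blocks explained less of the variance on every array. The margin was small on the ovary arrays, with 2.035% against 2.213% on array 1 and 8.995% against 10.92% on array 2. Rows were taken as 24 spots wide and were not checked in this way. Blocks were centred on their medians, spots of a gene averaged, and genes measured on all arrays of a fit tested against 0, two-sided, with limma 3.58.1 in R 4.3.3 (lmFit and eBayes, Benjamini-Hochberg over all genes, threshold 0.05), in S3 over arrays 1, 3 and 4 and in ovary over arrays 1 and 2. Python 3.11.15 with pandas 2.3.3 prepared the tables, and matplotlib 3.10.9 drew the figures.

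The 8 genes and the gene lists were chosen with earlier results of these data known, while the tests, lists and alternatives were then kept as written. List identifiers were matched by symbol or by a synonym of a single gene, and 2 that named a gene of another pathway were left out. The rule for named genes was all 8 genes, for each list and design up to 3 other genes with the smallest p, and for each of the 8 the 2 nearest in S3; others are said to be named after their values were seen. On simulated data with each group's spread, limma found 79% of the 2-fold and 100% of the 4-fold differences put in for S3. There were 18 false calls over 3 arrays and 6772 genes. For ovary the shares were 84% and 100%, with 1 false call over 2 arrays and 2377 genes. These shares and false calls hold only for the differences put in. The simulated errors were independent between genes and carried no print gradient, unlike the S3 arrays. On the deposited S3 arrays limma called 1 of 6772 genes. Whether it would find such shares of true differences on the deposited arrays was not tested.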

Additional observations from a re-analysis of the deposited data

Results flagged for a closer look

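Of 47 named genes with a value on 4 S3 arrays, 3 had an array far from the other 3. The measure was the gap of that array to the nearest over the whole range, with blocks centred. The cut-off is meant for genes not picked on their values, of which about 1 in 20 pass by chance. Many of the 47 were picked on S3 ratios or on small p-values. That rate therefore cannot be applied here, and the count is only a description. The 3 genes were Acox3 on array 2 (gap over range 0.955), Pglym78 on array 1 (0.918, with 0.83 beside 0.34, 0.37 and 0.33) and mdy on array 4 (0.937, with -0.79 beside 0.22, 0.16 and 0.16). These gaps take array 2 as deposited and depend on its sign, which is not settled. They were not computed with array 2 turned.

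Of 22 named genes on both designs, 7 had one sign on S3 arrays 1, 3 and 4 and the other on both ovary arrays, with blocks centred. Over all 1816 genes on both designs 257 (14.2%) did so and 263 (14.5%) had the same sign throughout, but the named genes were picked for small p-values and cannot be read against that share. The differences were not tested. With a dye as numerator, the as-deposited signs of the designs have opposite meanings. With a channel as numerator, the ovary arrays run opposite ways and their mean mixes directions. The numerator is not known, so neither reading below gives a direction relative to methotrexate. As deposited, the ovary mean minus the S3 mean was 2.92 for Cerk, -1.85 for ImpL2, 1.34 for CG5966, -1.60 for GstZ2, 1.64 for bdg, 1.66 for CG7255 and 1.44 for GCS2alpha. With the ovary ratios turned, as a dye as numerator would require, these differences were -1.37, -0.16, 0.02, 0.20, -0.97, -0.85 and -1.02. Their ovary means kept their sign with rows centred (1.33, -0.28, 0.27, -0.25, 0.62, 0.48 and 1.13). On S3 array 3 ImpL2 was at 0.049 with blocks centred and at -0.21 with array medians.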

How the results depend on the processing

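The S3 call of 1 gene rested on the setting. limma called 0 genes with blocks and rows centred, with equal scale between arrays, and with array 2 added as deposited or turned (blocks centred), with 536, 579, 644 and 331 genes at an unadjusted p under 0.05. With array medians it called 3 with array 2 added as deposited and 0 with array 2 turned (505 at an unadjusted p under 0.05). Leaving out 1 of arrays 1, 3 and 4 gave 0 to 28 calls: 28 without array 1, and 0 without array 3 or array 4 (656 and 478 at an unadjusted p under 0.05). In ovary the 1166 calls became 615 with blocks and rows centred, of which 425 were among the 1166 with the same sign, 435 of 1816 genes in the joint fit with S3, and 0 with array 2 turned (0 also at an unadjusted p under 0.05). With 1 ovary array left out limma has no residual degree of freedom and no count was made. Array medians, no centring, medians of spots, robust eBayes and a threshold of 0.10 kept both counts within 1.5 times. With blocks centred each of the 8 genes had the same sign on all 3 S3 arrays. Leaving out 1 array could therefore not change the sign of a mean. The cause of these changes was not tested. No paired analysis was possible because the shared replicate numbers join S3 with ovary arrays, which no test compared; within an array the log ratio already pairs treated with untreated RNA.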
